A study of Mus musculus with 3 samples.

Results

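The genes described here are 10 heat shock chaperones of the cytosol and mitochondria: Hspa1a, Hspa1b, Hspa8, Hsph1, Dnajb1, Hsp90aa1, Hsp90ab1, Hspd1, Hspe1 and Hspb1. They were taken by symbol from the 32285 genes of the count tables, all 10 were found, and the rule uses no measured value. The cells were E14 mouse embryonic stem cells (129/Ola background) kept in serum with leukaemia inhibitory factor on gelatin. Beginning 24 h after seeding, the cells of 1 library received 10 uM tubercidin for 3 h, those of another 10 uM tubercidin for 6 h, and those of the control an equal volume of the solvent DMSO for 6 h. Tubercidin is an analogue of adenosine that cells phosphorylate and can build into nucleic acids. The 3 h treatment had no vehicle control of its own duration, so every comparison with the control uses the 6 h DMSO library.

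Heat shock chaperones bind unfolded or newly made proteins and use ATP, or in the case of small heat shock proteins no ATP, to keep them from aggregating or to help them fold. Hsp70 proteins work with J-domain partners that deliver substrates and with exchange factors that release ADP, Hsp90 proteins act later on clients such as kinases, and the Hsp60 and Hsp10 proteins form the folding chamber of the mitochondrial matrix. Under protein stress the transcription factor Hsf1 forms trimers, binds heat shock elements (GAA units in alternating orientation) and raises transcription of many of these genes, Hspa1a and Hspa1b most of all. Embryonic stem cells carry high constitutive levels of several of the others.

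Each group was 1 library, so no difference was tested, no replicate error exists, and all intervals are 95% intervals of counting error alone. Cells numbered 2031 in the control, 2365 after 3 h and 2926 after 6 h, and held 104892739, 29892000 and 24681924 unique molecular identifiers (UMIs, each marking 1 captured RNA molecule). The median cell had 48452 UMIs in the control, 11877 after 3 h and 8004.5 after 6 h. RNA content per cell and sequencing depth cannot be told apart in this difference, so levels are given as CPM, UMIs scaled to one common total for the cells of every library. All 10 embryonic stem cell markers, Pou5f1, Sox2 and Nanog among them, stood above 10 CPM in each library, and together they made up 4852, 5658 and 4148 CPM. Markers of other cells summed to 0 to 1.09 CPM for 2-cell-like cells (9 of 10 markers found, of which 7, 9 and 4 were at 0 in the control, 3 h and 6 h), 6.72 to 10.9 CPM for primitive endoderm (Sox17 at 0 after 6 h), 1.65 to 2.67 CPM for fibroblasts (2 of 8 at 0 in each library) and 9.53 to 13.9 CPM for trophoblast (Hand1 at 0 after 6 h), the last mostly Tfap2c. Each pair of libraries shared 1 cell barcode.

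As a group the chaperones showed no large common increase under tubercidin. Their summed share of all UMIs was 1.83% in the control, 2.01% after 3 h and 2.13% after 6 h. Most of this share was Hsp90aa1 (4774, 5809 and 6075 CPM) and Hsp90ab1 (7013, 8026 and 9227 CPM). These genes carried the rise of the sum, and the other members together did not rise. None of the 10 genes was at least 1.5-fold higher than in the control after 3 h, where 3.61% of the 7884 genes averaging 10 CPM or more were, and none after 6 h, where 7.06% were. Hspa1b was at least 1.5-fold lower at both times, where 24.5% of genes after 3 h and 16.9% after 6 h were lower by as much. The 3 h call of Hspa1b was lost with median-of-ratios and TMM factors (-0.53 with both, on the log2 scale). No member passed 2-fold in either direction after 3 h (6.43% of genes) or 6 h (6.75%). These folds are on the scale of CPM + 1, which shrinks the differences of Hspa1a and Hspa1b. Both lay under the minimum of 10 CPM, so 8 of the 10 members were among the 7884 genes, and none of those 8 passed 1.5-fold in either direction.

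Within that narrow range the members split. Both Hsp90 genes and Hspb1 stood above the control after 3 h and after 6 h, Hspd1, Dnajb1 and Hspa1b stood below it at both times, and Hspe1, Hsph1 and Hspa8 lay within 0.13 of it after 3 h on the log2 scale. Hspa1a was the remaining member, with a 3 h interval that held 0. The median log2 ratio over the 10 members was 0.03 after 3 h and -0.11 after 6 h, against -0.27 and -0.12 over all 7884 genes. Since the median gene was itself below 0 at this scaling, a member's distance from it is given below for the 8 members that reached the minimum. Size factors moved these distances little, and with UMIs per cell each kept its sign. After 3 h, 7 members lay above the median gene and 3 below it, and after 6 h 5 lay above and 5 below. The bar plot of levels and the plot of ratios show these values gene by gene.

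**Figure D1:**
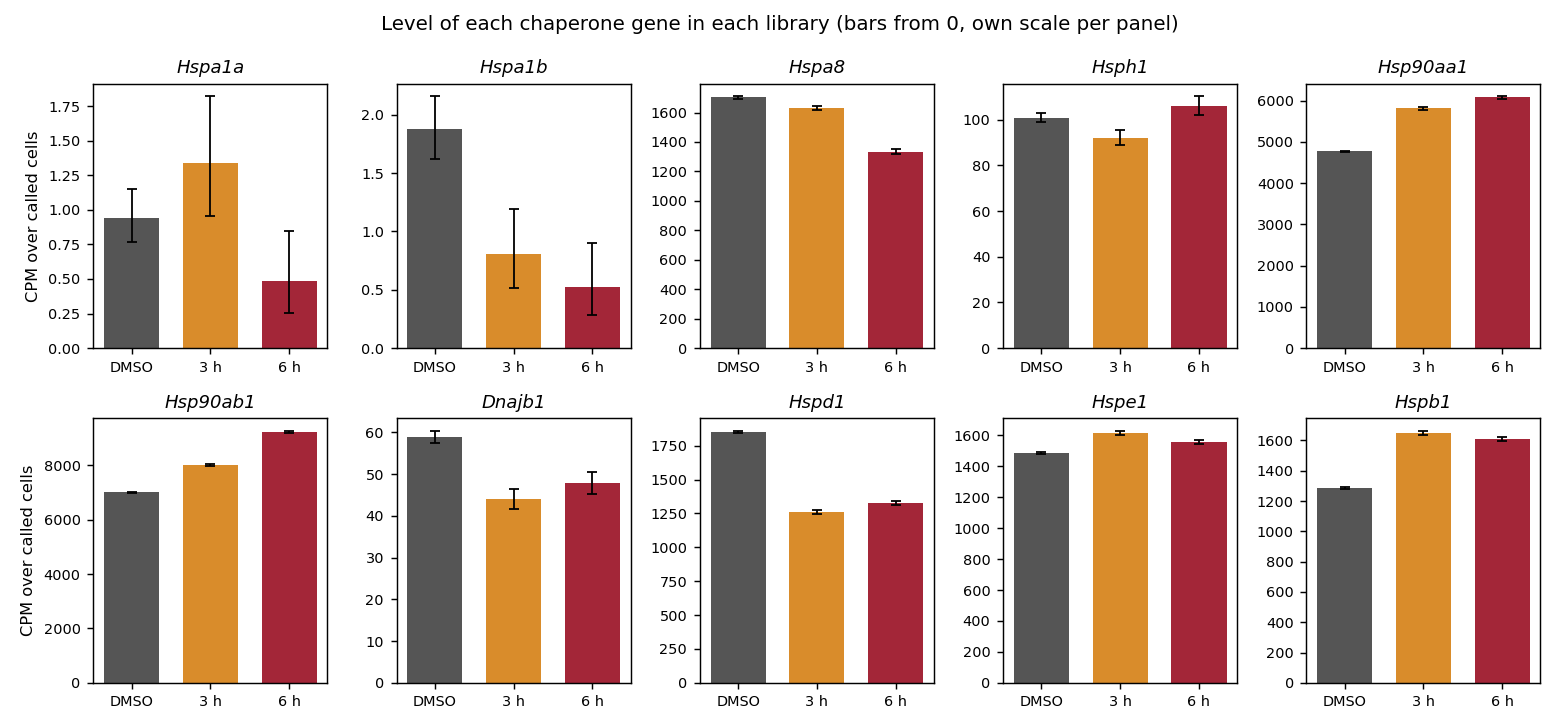
Level of each of the 10 chaperone genes (y axis, CPM over called cells, from 0, with its own scale per gene) in the DMSO, 3 h and 6 h libraries, with 95% Poisson intervals of counting error. Hsp90aa1, Hsp90ab1 and Hspb1 stand above DMSO at both times, Hspd1 and Dnajb1 below it, and Hspa1a and Hspa1b stay under 2 CPM.

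**Figure D2:**
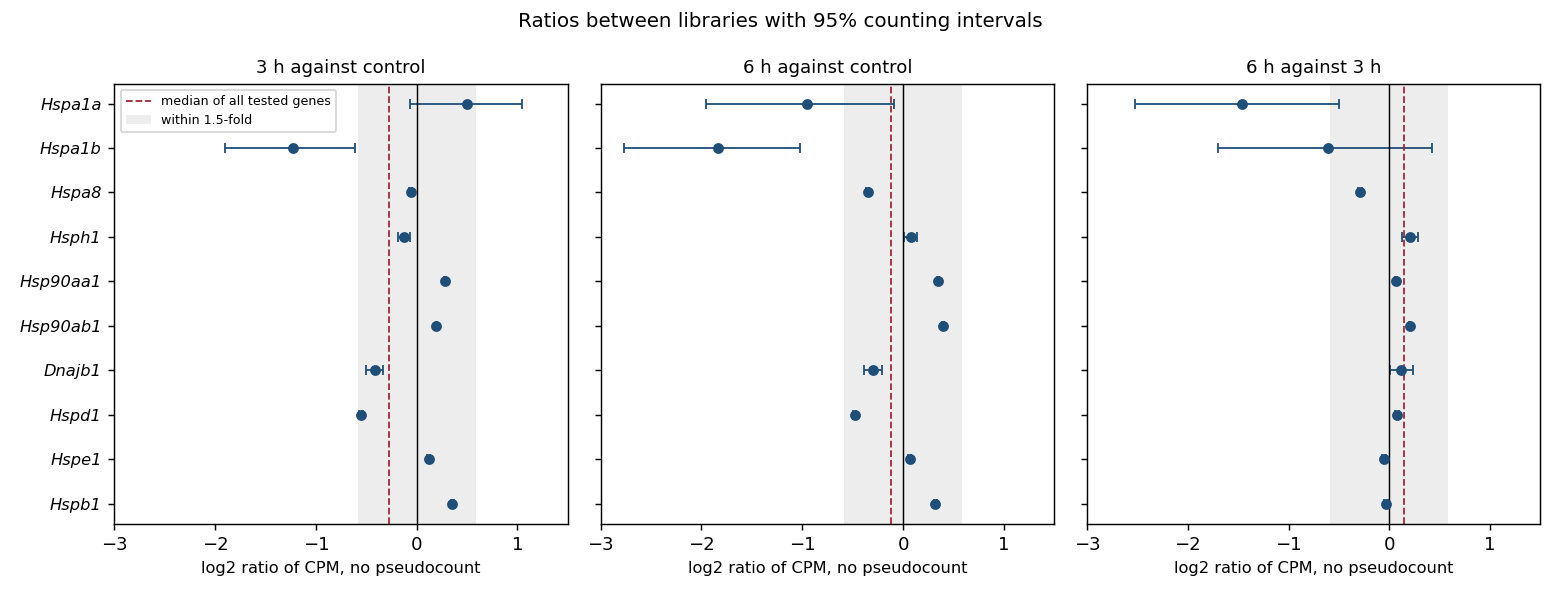
Log2 ratio of CPM without a pseudocount (x axis) for each gene in the 3 comparisons between libraries, with exact 95% intervals of counting error, the median of all 7884 genes (dashed line) and the range within 1.5-fold (grey band). The wide intervals belong to Hspa1a and Hspa1b, and the narrow ones of the other genes cover counting error in single libraries, not differences between cultures.

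The stress-inducible Hsp70 genes Hspa1a (ENSMUSG00000091971, chr17:34969190-34972156 in GRCm38, minus strand) and Hspa1b (ENSMUSG00000090877, chr17:34956436-34959238, minus strand) encode nearly identical proteins and are the classical readout of Hsf1 activity. Both are genes of 1 exon, 9951 bp apart. Their proximal promoters are printed because Hsf1 acts through elements in such promoters and because the pair is almost the same sequence there. The 250 bases before each start site, from the RefSeq promoter table on GRCm38.p6 and read 5′ to 3′ on the minus strand, are chr17:34972157-34972406 for Hspa1a and chr17:34959239-34959488 for Hspa1b. Capitals mark the match to GAANNTTC, 104 bases before the start in both.
Hspa1a: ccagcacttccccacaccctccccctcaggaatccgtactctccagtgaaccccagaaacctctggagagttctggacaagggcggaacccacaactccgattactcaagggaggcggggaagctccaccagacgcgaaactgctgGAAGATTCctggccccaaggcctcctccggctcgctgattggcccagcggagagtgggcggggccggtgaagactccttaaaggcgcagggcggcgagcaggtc
Hspa1b: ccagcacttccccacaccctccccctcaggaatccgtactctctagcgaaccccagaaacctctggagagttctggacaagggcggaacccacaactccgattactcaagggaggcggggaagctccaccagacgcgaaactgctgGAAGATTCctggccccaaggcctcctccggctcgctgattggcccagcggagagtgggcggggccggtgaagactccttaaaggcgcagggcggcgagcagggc
The stretches differ at 3 of 250 bases (98.8% identity), namely C44T, T47C and T249G, counted from 1 at the 5′ end with the Hspa1a base first. The motif GAANNTTC or TTCNNGAA, each its own reverse complement so that 1 search covers both strands, was found in the 250 bases before a start site in 12.8% of the 32851 promoters of the table. It was found in 6 of the 7 members with an entry (Hspa1a, Hspa1b, Hsph1, Hspd1, Hspe1 and Hspb1, not Dnajb1), and such a match describes the letters only. Members are counted per gene if any of their 10 entries matched, so this count and the share per promoter are in unlike units. The near-identical Hspa1a and Hspa1b count separately, as do Hspd1 and Hspe1, which match in the same element.

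Hspa1a and Hspa1b were close to undetected in all 3 libraries. Hspa1a had 99 UMIs in the control (0.944 CPM, 0.767 to 1.15), 40 after 3 h (1.34 CPM, 0.956 to 1.82) and 12 after 6 h (0.486 CPM, 0.251 to 0.849). Hspa1b had 197 UMIs in the control (1.88 CPM, 1.62 to 2.16), 24 after 3 h (0.803 CPM, 0.514 to 1.19) and 13 after 6 h (0.527 CPM, 0.280 to 0.901). The Hspa1a intervals of the control and 3 h overlap, as do those of the control and 6 h, and for Hspa1b the control lies above both treated libraries, whose intervals overlap each other. Without a pseudocount the log2 ratio of Hspa1a was 0.50 after 3 h (-0.06 to 1.05) and -0.96 after 6 h (-1.96 to -0.09), and that of Hspa1b was -1.23 (-1.90 to -0.61) and -1.83 (-2.77 to -1.03). From 3 h to 6 h Hspa1a was lower by a log2 ratio of -1.46 (-2.53 to -0.50), and it was the only member at least 1.5-fold lower on the CPM + 1 scale in that comparison, where 1.67% of genes were. None was at least 1.5-fold higher from 3 h to 6 h (8.51% of genes), and none passed 2-fold (1.80% of genes).

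No group of strongly induced cells was visible for this pair. The most UMIs of both genes together in any single cell were 4 in the control, 2 after 3 h and 1 after 6 h. At least 1 UMI was found in 255 control cells (12.6%, Clopper-Pearson interval 11.1 to 14.1%), 61 cells after 3 h (2.58%, 1.98 to 3.30%) and 25 cells after 6 h (0.854%, 0.554 to 1.26%). The libraries differ in depth, and after each cell was thinned to 4000 UMIs, Hspa1a was found in 0.345%, 0.312% and 0.189% of cells and Hspa1b in 0.640%, 0.357% and 0.151%, with overlapping intervals between neighbouring libraries. These shares rest on 7, 7 and 5 cells for Hspa1a and 13, 8 and 4 for Hspa1b. Another random draw gave 0.295%, 0.580% and 0.151% for Hspa1a and 0.739%, 0.357% and 0.0757% for Hspa1b. The order of the libraries for Hspa1a thus changed with the draw. Cells with at least 3 UMIs of the pair numbered 7 in the control (0.345%) and 0 in each treated library, which allows a share of up to 0.127% after 3 h and 0.103% after 6 h (3 counts of the cells). These counts were not thinned, and the treated libraries were the shallower ones. The thinning left out 0 control cells, 122 after 3 h and 284 after 6 h that had fewer UMIs.

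The pair was also counted in low barcodes, which hold free RNA and no called cell. Hspa1b stood there at 3.17 CPM in the control (11 UMIs, 1.58 to 5.67), 1.40 after 3 h (3 UMIs, 0.289 to 4.10) and 1.42 after 6 h (2 UMIs, 0.171 to 5.11), and each of these intervals held its level in cells. Hspa1a stood at 0.576 CPM in the control (2 UMIs, 0.0698 to 2.08) and 0.936 after 3 h (2 UMIs, 0.113 to 3.38). Both intervals held its level in cells, and it had 0 UMIs after 6 h. Of all Hspa1b UMIs, 21.8%, 22.6% and 45.8% lay outside cells, against 9.31%, 15.5% and 15.9% of the UMIs of all genes. The low barcodes held these 11, 3 and 2 UMIs of Hspa1b over 10000 barcodes, and the cells 0.0970, 0.0101 and 0.00444 UMIs each. Per barcode Hspa1b was thus higher in cells. Its share of UMIs was not shown to differ between cells and these low barcodes, whose counts were small. Over all barcodes outside cells, the percentages above place more of Hspa1b there than of all genes in each library. They rest on 252, 31 and 24 UMIs of Hspa1b in all barcodes. With free RNA subtracted at a set 10%, its ratios of CPM + 1 were -0.64 after 3 h and -0.93 after 6 h, against -0.67 and -0.91 without. The part of free RNA in its lower values after tubercidin was not otherwise tested. No cell type lacking these genes was present to set a further background.

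Hspa8 (ENSMUSG00000015656, chr9:40800984-40810087, plus strand), the constitutive cytosolic Hsp70 that also strips clathrin from vesicles, was lower after 6 h. It stood at 1703 CPM in the control, 1632 after 3 h and 1335 after 6 h, from highest to lowest in that order, with no overlap of counting intervals. The log2 ratio was -0.06 after 3 h (-0.08 to -0.05) and -0.35 after 6 h (-0.37 to -0.33). Relative to the median gene it was 0.21 above after 3 h and -0.23 after 6 h. Its sign after 3 h therefore depends on the scaling: it was 0.22 with median-of-ratios size factors and 0.20 with TMM factors, while the 6 h ratio stayed between -0.36 and -0.22 over the scalings to a library total or size factor, cell filters and pseudocounts tried. Of 411 windows of 90 bases in the last 500 bases of its transcript, 79.8% also occur in other annotated genes, 8 of them, so its count can depend on how reads with several matches were handled.

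The partners of Hsp70 were measured at much lower counts. Dnajb1 (ENSMUSG00000005483, chr8:83608193-83612653), the J-domain protein that delivers substrates to Hsp70 and is itself strongly heat-inducible, stood at 58.8 CPM in the control, 44.1 after 3 h and 47.8 after 6 h. Both treated libraries were below the control, with log2 ratios of -0.41 and -0.29, and their intervals (41.7 to 46.5 and 45.1 to 50.6 CPM) overlap each other. At equal depth it was found in 21.4% of control cells (19.7 to 23.3%), 16.4% after 3 h (14.9 to 17.96%) and 18.2% after 6 h (16.7 to 19.7%), against 91.5%, 40.5% and 32.0% without thinning. It lay -0.14 and -0.17 from the median gene.

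Hsph1 (ENSMUSG00000029657, chr5:149614287-149636376, minus strand), the Hsp110 protein that acts as an exchange factor for Hsp70, hardly moved. Its levels were 101 CPM in the control (98.9 to 103), 92.2 after 3 h (88.8 to 95.7) and 106 after 6 h (102 to 110), so that the 3 h library was the lowest while the control and 6 h overlapped. The log2 ratios were -0.13 after 3 h and 0.07 after 6 h, and 0.15 and 0.20 with median-of-ratios size factors. The 3 h difference also varied with the depth of the cells. The shallowest cells held 97.5 CPM in the control (93.5 to 102) and 105 after 3 h (96.9 to 114), with overlapping intervals. The deepest held 104 (101 to 107) and 89.3 (84.5 to 94.2), with no overlap. It was found in 32.2%, 30.4% and 33.6% of thinned cells, against 96.5%, 62.7% and 53.4% unthinned. Per UMI of Dnajb1 there were 28.9 UMIs of Hspa8 in the control, 37.0 after 3 h and 27.9 after 6 h, and per UMI of Hsph1 there were 16.9, 17.7 and 12.6, ratios that no scaling changes. The 6 h library thus had less Hspa8 per Hsph1 than the control, beyond counting error (12.1 to 13.1 against 16.6 to 17.2). A stretch of 30 bases around the TTCNNGAA match of Hsph1 (capitals; RefSeq, GRCm38.p6, chr5:149636351-149636380, minus strand, inside exons of other Hsph1 transcripts) is shown for comparison with the longer element described below.
Hsph1: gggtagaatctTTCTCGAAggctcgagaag

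The cytosolic Hsp90 genes were the most abundant members and both stood higher after tubercidin. Hsp90aa1 (ENSMUSG00000021270, chr12:110690605-110702728, minus strand), the stress-responsive form, stood at 4774 CPM in the control, 5809 after 3 h and 6075 after 6 h. Hsp90ab1 (ENSMUSG00000023944, chr17:45567775-45573271, minus strand), the constitutive form, stood at 7013, 8026 and 9227 CPM. For both genes the order was control, 3 h, 6 h, with no overlap of counting intervals. The log2 ratio of Hsp90aa1 was 0.28 after 3 h and 0.35 after 6 h, and that of Hsp90ab1 was 0.19 and 0.40. Set against the median gene, these were 0.56 and 0.47 for Hsp90aa1 and 0.47 and 0.52 for Hsp90ab1. Both kept a positive sign after 3 h and 6 h under each scaling to a library total or size factor, each cell filter and each pseudocount tried. Counted per cell with no scaling, all 10 members were lower, as Hsp90ab1 was with 362 UMIs per control cell, 101 after 3 h and 77.8 after 6 h.

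The balance between the Hsp90 forms changed little. There were 1.47 UMIs of Hsp90ab1 per UMI of Hsp90aa1 in the control (1.46 to 1.47), 1.38 after 3 h (1.37 to 1.39) and 1.52 after 6 h (1.51 to 1.53). Neither gene's last 500 transcript bases held a 90-base window found in another annotated gene. The balance between Hsp70 and Hsp90 moved further: Hspa8 per Hsp90ab1 was 0.243 in the control, 0.203 after 3 h and 0.145 after 6 h. UMI ratios between different genes also carry differences in capture, so only their change between libraries is compared.

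The genes of the mitochondrial chaperonin pair went opposite ways. Hspd1 (ENSMUSG00000025980, chr1:55077835-55088243, minus strand, 12 exons) encodes Hsp60, the barrel of the folding chamber. Hspe1 (ENSMUSG00000073676, chr1:55088132-55091307, plus strand, 4 exons) encodes Hsp10, its lid. The genes lie head to head, overlap at their 5′ ends on opposite strands and share a bidirectional promoter region. The element below is printed because it lies where the genes meet: GAA and TTC units alternate with 2 bases between them. A run of at least 3 such units was found in 0.466% of the 32851 promoters (153 promoters) and, among the 7 members with an entry, in these 2 genes, for Hspd1 in 1 of its 2 entries. It lies 95 to 66 bases before the Hspe1 start at chr1:55088053-55088082 (RefSeq, GRCm38.p6, shown on the plus strand of Hspe1), within an exon of another Hspd1 transcript. Capitals mark the overlapping matches.
Hspe1: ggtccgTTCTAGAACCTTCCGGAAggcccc

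Hspd1 stood at 1850 CPM in the control, 1261 after 3 h and 1327 after 6 h. Hspe1 stood at 1486 CPM in the control, 1613 after 3 h and 1557 after 6 h. The treated libraries were thus below the control for Hspd1 and above it for Hspe1, with no overlap of counting intervals in either gene. The log2 ratios of Hspd1 were -0.55 after 3 h (-0.57 to -0.54) and -0.48 after 6 h (-0.50 to -0.46), and those of Hspe1 were 0.12 (0.10 to 0.13) and 0.07 (0.05 to 0.08). Their distances from the median gene were -0.28 and -0.36 for Hspd1 and 0.39 and 0.19 for Hspe1. Neither gene changed sign after 3 h or 6 h under the scalings to a library total or size factor, cell filters and pseudocounts tried.

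The ratio within a library is free of scaling. There were 1.24 UMIs of Hspd1 per UMI of Hspe1 in the control (1.24 to 1.25), 0.781 after 3 h (0.771 to 0.792) and 0.853 after 6 h (0.840 to 0.865). The ratio was lower in both treated libraries than in the control, and lowest after 3 h. In the shallowest cells, those under the lower tercile of UMIs of their library, the ratio was 1.24, 0.872 and 0.832, and in the deepest cells 1.26, 0.760 and 0.855. With cells over 10% mitochondrial UMIs left out it was 1.24, 0.771 and 0.851, and in the low barcodes of free RNA 0.958, 0.466 and 0.703. The control was the highest of the 3 libraries in every one of these subsets. Hspe1 itself stood in the low barcodes at 1209 CPM in the control, 1877 after 3 h and 1428 after 6 h, so that after 3 h its level there was above that in cells. With free RNA subtracted at a set 10%, the 3 h ratio of Hspe1 was 0.09, and the part of free RNA in it was not otherwise tested.

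At 4000 UMIs per cell, Hspd1 outnumbered Hspe1 in 59.3% of control cells (57.2 to 61.5%), 29.9% of cells after 3 h (28.0 to 31.8%) and 33.0% after 6 h (31.2 to 34.8%). Hspe1 outnumbered Hspd1 in 29.9%, 59.4% and 56.2%. The share of cells with equal counts was 10.8% in DMSO, 10.7% after 3 h and 10.8% after 6 h. Of the windows in the last 500 bases of Hspe1, 36.0% also occur in 1 other annotated gene, and no window of Hspd1 does.

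**Figure D3:**
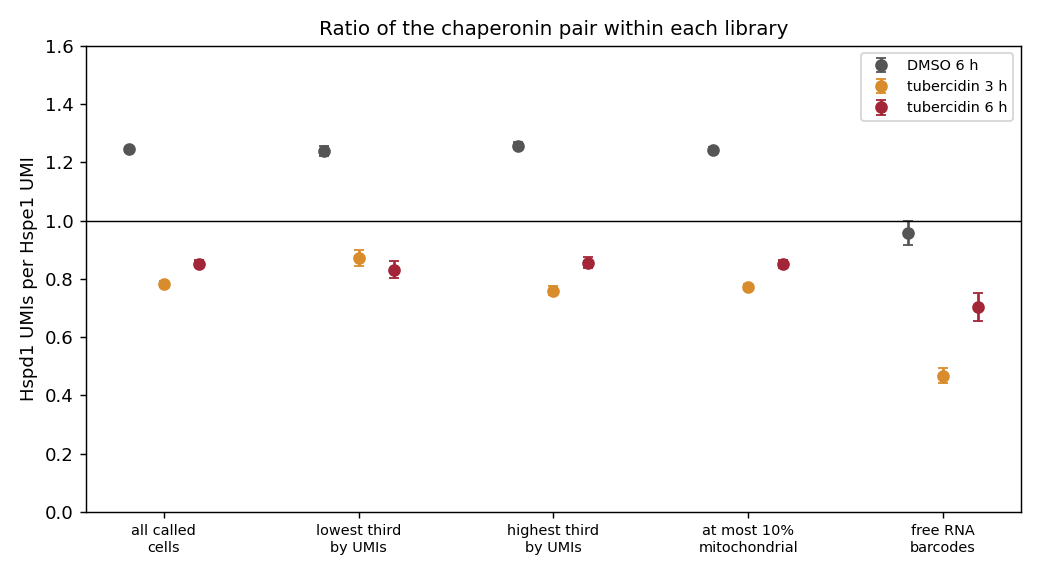
UMIs of Hspd1 per UMI of Hspe1 (y axis) in each library, for all called cells, for subsets of cells and for low barcodes, with exact 95% intervals of counting error. The DMSO library lies above both tubercidin libraries in each subset, at 1.24 over all cells against 0.781 and 0.853.

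Hspb1 (ENSMUSG00000004951, chr5:135887919-135889563, plus strand, 2 exons) encodes the small heat shock protein Hsp25, which holds unfolded proteins without ATP. The 68 bases below (RefSeq, GRCm38.p6, chr5:135887782-135887849, plus strand) are shown because Hspb1 had the highest 3 h ratio of the 8 members that reached the minimum and, unlike the other members with an entry, has a pair of separate motif matches, in capitals, 117 and 97 bases before its start.
Hspb1: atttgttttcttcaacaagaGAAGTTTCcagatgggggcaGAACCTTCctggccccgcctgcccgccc
Hspb1 stood at 1289 CPM in the control, 1648 after 3 h and 1610 after 6 h. Both treated libraries were above the control, and 3 h was the higher of them (1633 to 1663 against 1594 to 1626 CPM). The log2 ratios were 0.35 and 0.32, or 0.63 and 0.44 above the median gene. With median-of-ratios or TMM factors Hspb1 passed 1.5-fold after 3 h (0.63 and 0.62), the only member to do so. The share of all genes that did so with these factors is not given. Hspb1 per Hspa8 was 0.757 in the control, 1.01 after 3 h and 1.21 after 6 h. In the low barcodes Hspb1 was at 697, 1388 and 1195 CPM, below its level in the cells of each library, with the same order of libraries.

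Most UMIs of the 8 other members lay in cells. Between 6.29 and 8.52% of their UMIs lay outside cells in the control, 11.4 to 16.1% after 3 h and 11.3 to 15.9% after 6 h, against the 9.31%, 15.5% and 15.9% of all genes. Some levels differed with the depth of the cell by as much as between libraries. Between the deepest and shallowest cells of a library, the log2 ratio of a level was 0.13 for Hspa8 in the control, 0.17 for Hsp90ab1 after 3 h, -0.24 for Hsph1 after 3 h (-0.38 to -0.09) and -0.09 for Hspb1 after 6 h. The 3 h difference of Hsp90ab1 from the control was present among the shallowest cells (7354 against 6959 CPM) and the deepest (8299 against 6960 CPM).

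Over cells at equal depth, Hsp90aa1 widened in the treated libraries. Its median was 19 UMIs per cell in the control and 23 after 3 h and 6 h, and its 90th percentile was 26, 33 and 35. The Fano factor, the variance over the mean, was 1.76 in the control, 2.65 after 3 h and 2.70 after 6 h. Over all genes averaging 5 thinned UMIs or more the median Fano factor was 1.35, 1.63 and 1.49. Hsp90ab1 had Fano factors of 1.65, 2.27 and 1.76 with medians of 28, 31 and 37 UMIs. Hspa8 had 1.55, 1.87 and 1.66, Hspb1 1.42, 1.57 and 1.58, Hspd1 1.40, 1.40 and 1.27, and Hspe1 1.31, 1.32 and 1.33. The Fano factor can grow with the mean, and its excess over 1 divided by the mean was 0.0404, 0.0709 and 0.0701 for Hsp90aa1. For Hspa8 it was 0.0824, 0.134 and 0.123, and for Hspb1 0.0802, 0.0877 and 0.0881. The other abundant members were not above the control after 6 h. Hsp90ab1 had 0.0236, 0.0403 and 0.0206, Hspd1 0.05416, 0.08004 and 0.05055, and Hspe1 0.05204, 0.05035 and 0.05196. The same measure over all genes is not given, so these values are no result about the members as a group. Cells of 1 library share their source, so these values describe 3 libraries.

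**Figure D4:**
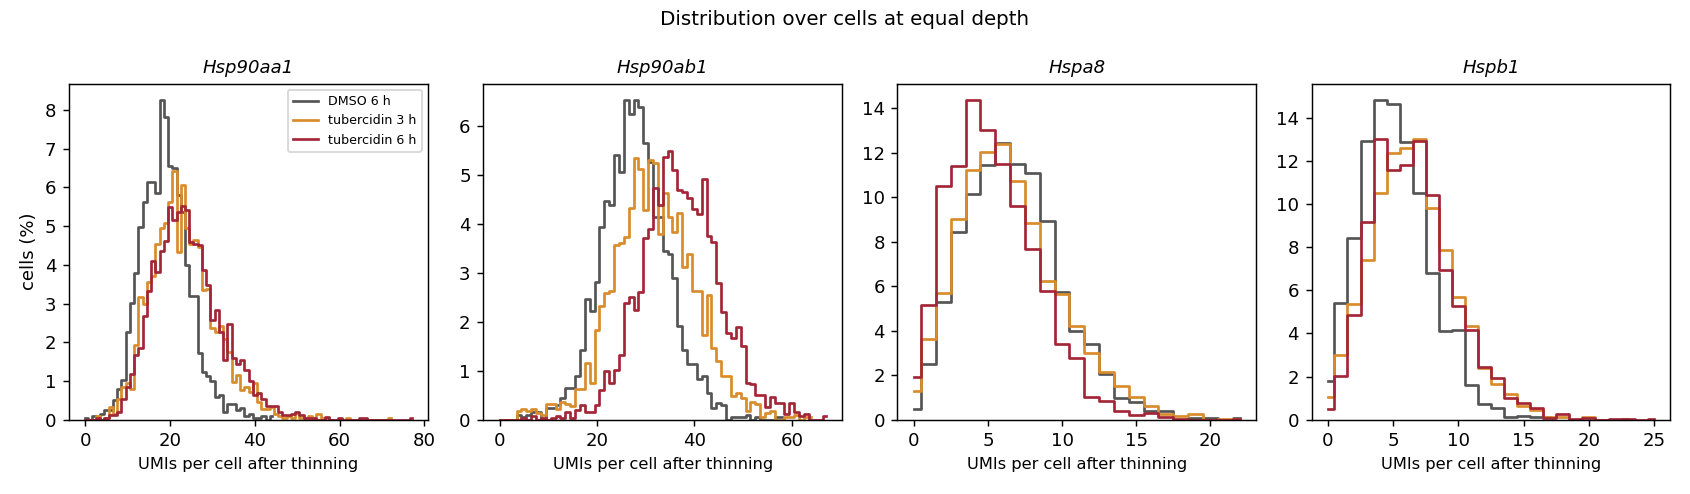
Distribution over cells of thinned UMIs per cell (x axis; y axis, percent of cells) for Hsp90aa1, Hsp90ab1, Hspa8 and Hspb1 in the DMSO, 3 h and 6 h libraries, after each cell was thinned to 4000 UMIs. Hsp90aa1 reaches further right after tubercidin, with a 90th percentile of 33 and 35 UMIs against 26 in DMSO, and Hsp90ab1 shifts right from a median of 28 to 31 and 37 UMIs.

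Correlations between members among cells were weak. Over the 15 pairs of the 6 abundant members, Pearson's r lay between 0.01 and 0.20 in the control (2031 cells), -0.11 and 0.18 after 3 h (2243 cells) and -0.14 and 0.17 after 6 h (2642 cells). The highest pair was Hspd1 with Hspe1 in the control (0.20), Hspa8 with Hsp90ab1 after 3 h (0.18) and Hsp90aa1 with Hspb1 after 6 h (0.17), and for Hspd1 with Hspe1 it was 0.08 after 3 h and 0.10 after 6 h. These are descriptions of cells that share a library and a depth. The genes whose thinned counts went most with the summed members were Npm1 (0.26), Rpl13 (0.25) and Rpl41 (0.22) in the control, Actb (0.32), Ncl (0.27) and Npm1 (0.25) after 3 h, and Dppa5a (0.27), Rpl13 (0.27) and Rpl6 (0.26) after 6 h. All are abundant genes counted in the same cells at the same depth.

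Among 3050 genes averaging 50 CPM or more, those nearest to Hsp90ab1 in their pair of log2 ratios against the control (0.19 and 0.40) were Hirip3 (0.19 and 0.41), Zfp593 (0.18 and 0.40) and Cenpm (0.18 and 0.39). Nearest to Hspa1b (-0.67 and -0.91 on the CPM + 1 scale) were Slbp (-0.68 and -0.89), Enox1 (-0.64 and -0.91) and Cks1b (-0.66 and -0.88). The likeness is over 3 libraries, and the Hspa1b values are shrunk by the pseudocount.

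Further genes of the same pathways were grouped by role, and their counts are read against the share of all genes called above. Among the regulators, 3 of 5 listed genes passed the minimum, with 0 higher and 1 lower by 1.5-fold after 3 h and after 6 h. Hsf1, the main heat shock factor, stood at 16.3 CPM in the control, 13.3 after 3 h and 13.1 after 6 h, with log2 ratios of -0.27 and -0.29. Hsf2, a factor that forms mixed trimers with Hsf1, stood at 43.9, 20.8 and 25.0 CPM, with log2 ratios of -1.04 and -0.79. Hsbp1, which binds Hsf1 trimers, had ratios of 0.29 and 0.24. The median of these 3 genes was -0.27 and -0.29, against -0.27 and -0.12 for all genes, and over all 5 listed genes it was -0.10 and 0.17. Hsf5, under the minimum and singled out after its values were seen, stood at 1.31 CPM in the control (137 UMIs), 5.85 after 3 h (175 UMIs) and 9.60 after 6 h (237 UMIs), with log2 ratios of CPM + 1 of 1.57 and 2.20.

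Of 8 Hsp70 and Hsp110 relatives, 3 passed the minimum, and 0 were higher and 2 lower by 1.5-fold after 3 h, 0 and 1 after 6 h, with medians of -0.59 and -0.28. Hspa4, an Hsp110-type exchange factor, had log2 ratios of -0.59 and -0.04, Hspa13, an Hsp70 relative found at the endoplasmic reticulum, -0.90 and -0.75, and Hspa14 -0.48 and -0.28. Of 14 J-domain proteins 11 passed, with 0 higher and 2 lower after 3 h and 2 higher and 1 lower after 6 h, and medians of -0.19 and -0.12. The higher ones were Dnajb4 (7.87, 11.2 and 16.2 CPM, log2 ratios 0.47 and 0.95) and Dnajb14 (0.57 and 0.76), and the lower ones were Dnajc2 (-0.80 and -0.62) and, after 3 h, Dnaja2 (-0.62 and -0.29). Of 10 exchange factors and other Hsp70 cochaperones 8 passed, with 0 higher and 1 lower at either time and medians of -0.08 and 0.14. The lower one was Bag5 (27.4, 8.87 and 10.3 CPM, log2 ratios -1.52 and -1.34), while Hspbp1 was at -0.01 and 0.53, Stub1, a ubiquitin ligase bound to Hsp70, at 0.03 and 0.49, and Hikeshi, which carries Hsp70 into the nucleus, at -0.07 and -0.37.

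All 15 Hsp90 cochaperones passed the minimum, with 0 higher and 3 lower by 1.5-fold after 3 h and 1 higher and 3 lower after 6 h. The activators of the Hsp90 ATPase were lower while Hsp90 itself was higher: Ahsa1 stood at 81.7, 43.1 and 40.4 CPM (log2 ratios -0.91 and -0.998), and Ahsa2 at -0.90 and -0.91. Cdc37, which brings kinases to Hsp90, stood at 278, 346 and 447 CPM (0.32 and 0.69). The list median was -0.02 after 3 h and -0.18 after 6 h, against -0.27 and -0.12 for all genes.

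Other mitochondrial chaperones and proteases also went both ways. Of 14 genes, all passed, with 0 higher and 3 lower after 3 h and 1 higher and 3 lower after 6 h, and medians of -0.26 and -0.18. Grpel2, an exchange factor of mitochondrial Hsp70, had log2 ratios of -0.99 and -1.01 and Hscb, a J-domain protein of iron-sulfur cluster assembly, 0.04 and -0.72. Dnaja3, a mitochondrial J-domain protein, stood at 41.6, 46.2 and 79.1 CPM (0.15 and 0.91), and Clpb, a disaggregase, at 0.36 and 0.49.

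The cytosolic chaperonin TRiC and its feeder prefoldin (14 genes, all passing) had 0 higher and 1 lower after 3 h and 0 and 2 after 6 h, with medians of -0.07 and -0.06. Pfdn2 stood at 203, 163 and 101 CPM (log2 ratios -0.32 and -0.998) and Pfdn4 at -0.63 and -0.67, while Pfdn5 was at 0.37 and 0.41 and Cct5 at 0.38 and 0.24. None of the 9 other small heat shock proteins reached the minimum. Of these, Hspb2 stood at 5.05, 8.80 and 10.4 CPM and Hspb11 at 8.15, 3.85 and 3.12 CPM, both named after their values were seen. Of 13 chaperones of the endoplasmic reticulum 12 passed, with 0 higher and 3 lower at either time and medians of -0.36 and -0.22. The lowest after 6 h were Sdf2l1 (-0.94 and -1.18) and Dnajb11 (-0.40 and -0.90), and the highest were Canx (-0.06 and 0.53) and Calr (0.25 and 0.10), both lectin chaperones.

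Of 10 polyubiquitin and oxidative stress genes, 9 passed, with 0 higher and 3 lower at either time. Ubb, a polyubiquitin gene that heat shock induces, stood at 1013 CPM in the control, 684 after 3 h and 339 after 6 h, with log2 ratios of -0.57 and -1.58. Hmox1, an oxidative stress gene, was at -0.41 and -0.77, Sqstm1 at -0.05 and 0.14 and Gadd45b at 0.14 and -0.00. The list median was -0.41 after 3 h and -0.50 after 6 h. With median-of-ratios size factors the 3 h medians of the J-domain proteins (0.09), the Hsp70 cochaperones (0.20), the Hsp90 cochaperones (0.26), the mitochondrial list (0.01) and the TRiC and prefoldin list (0.21) turned positive, as did the 6 h medians of the J-domain proteins (0.01) and of TRiC and prefoldin (0.07). The dot plot of these lists shows each tested gene beside its list median.

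**Figure D5:**
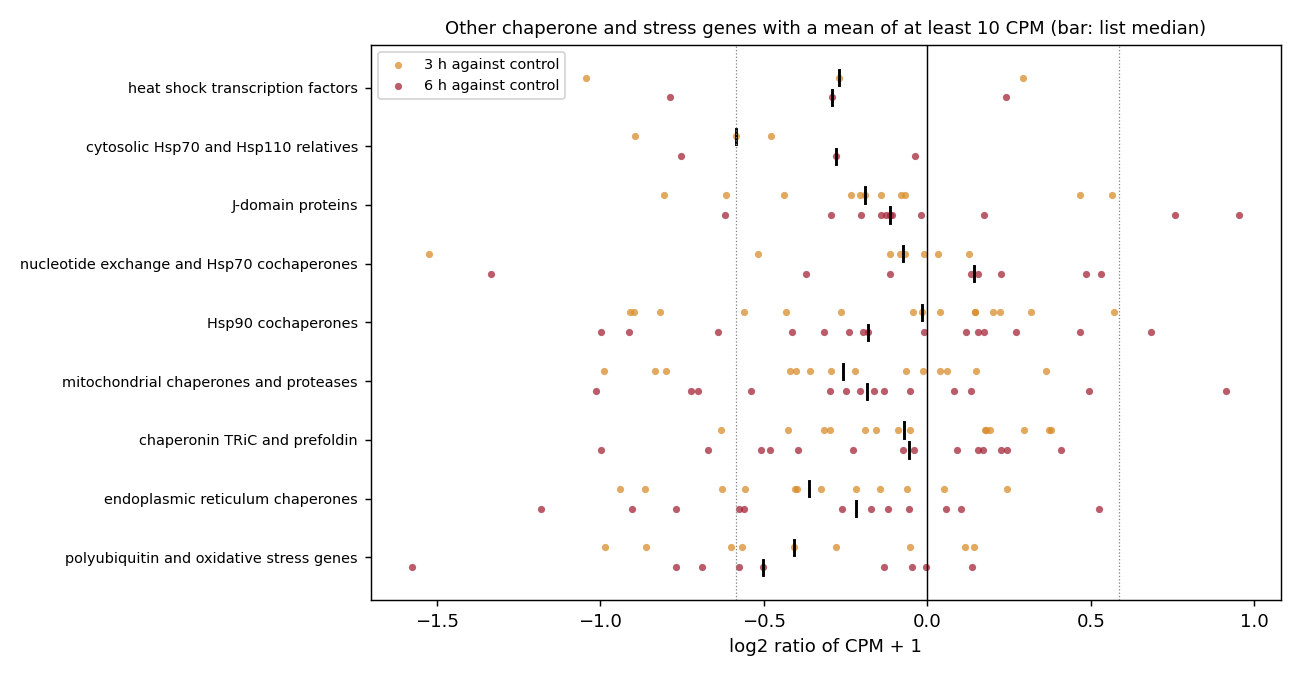
Log2 ratio of CPM + 1 against the control (x axis) for each gene averaging 10 CPM or more in the lists of other chaperone and stress genes (y axis), after 3 h and 6 h, with a bar at each list median and dotted lines at 1.5-fold. Most lists lie on both sides of 0, and the polyubiquitin and oxidative stress genes have medians of -0.41 and -0.50.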

How the data were processed

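Polyadenylated RNA of single cells was measured with 10x Chromium 3' v3 chemistry in 3 libraries of 1 group each. The authors deposited UMI counts that are neither normalized nor filtered for cells, and used Cell Ranger 7.1.0 and mm10, per the submitters' processing notes. The annotation, and whether intronic reads and reads with several matches were counted, are not given in the sources used here. A barcode was called a cell if its UMIs reached 1/10 of the 99th percentile among the 3000 largest barcodes, it had 500 genes or more, and mitochondrial UMIs made up no more than 20%. The mitochondrial limit removed 0, 7 and 1 barcodes. Doublets were kept and no cells were clustered.

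UMIs were summed over cells and scaled to CPM, and libraries were compared by log2 of CPM + 1. Intervals are exact conditional binomial for ratios, Clopper-Pearson for shares and Poisson for levels, at 95%. Low barcodes are those ranked 5001 to 15000. Where free RNA was subtracted, the share was set at 10% and not measured in each library. A gene with 0 UMIs could stand at up to 0.0286, 0.100 and 0.122 CPM (3 counts). Thinning drew 4000 UMIs per cell. In simulated libraries of 7884 genes, 100% of 200 changed genes passed 2-fold in each comparison, and 95.1%, 95.8% and 95.1% of the intervals for 3 h against control, 6 h against control and 6 h against 3 h held the true ratio.

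The members and the lists were chosen with earlier results of these data known. Named genes are the members, the 2 highest and 2 lowest tested genes of each list by 6 h ratio, Hsf1 and Hsf2, the 3 genes nearest in ratio to the highest and lowest member, and the 3 genes per library that correlated best over cells with the summed members. Some genes that the rule names are not reported here. Alternatives covered scaling, cell cut-off, mitochondrial limit, cells of many UMIs, cell weights, free RNA, pseudocount and the minimum level. Gene positions, exons and shared windows came from GENCODE M21 (GRCm38), and promoters from RefSeq (GRCm38.p6), where 7 members had an entry. Computation used Python 3.11.15, numpy 2.4.6, scipy 1.17.1, pandas 2.3.3, matplotlib 3.10.9 and edgeR 4.0.16 (TMM factors only) in R 4.3.3.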

Additional observations from a re-analysis of the deposited data

Results flagged for a closer look

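Hsph1 stood on opposite sides of the control at the 2 times, with log2 ratios of -0.13 after 3 h and 0.074 after 6 h, and the counting interval of each ratio left out 0. The difference between the times was not tested, since each time is 1 library, and both ratios share the control. Under median-of-ratios size factors both were positive, at 0.15 and 0.20. Among the shallowest cells the 3 h library stood at 105 CPM against 97.5 in the control, with overlapping counting intervals. Among the deepest it was below the control (89.3 against 104 CPM), with no overlap.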

How the results depend on the processing

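The median log2 ratio of the 10 members followed the scaling. With median-of-ratios size factors it was 0.31 at 3 h, 0.014 at 6 h and -0.14 between 6 h and 3 h, with TMM factors 0.29, 0.0041 and -0.13, and as UMIs per cell with no scaling -1.87, -2.40 and -0.51. Those scalings moved the median of all genes by 0.27, 0.12 and -0.15, by 0.26, 0.12 and -0.14, and by -1.96, -2.51 and -0.54. Subtracting free RNA at a set 10% gave members' medians of 0.011 at 3 h and -0.011 between 6 h and 3 h. Members at least 1.5-fold higher at 3 h numbered 1 with either set of factors, and those at least 1.5-fold lower 0, since Hspa1b then stood at -0.53. As UMIs per cell, with a pseudocount, 10 members were that much lower at 3 h, 10 at 6 h and 3 between 6 h and 3 h. The pseudocount shrinks Hspa1a and Hspa1b, which were not among these 3. Hspa1a had 0.0169 UMIs per cell after 3 h and 0.00410 after 6 h, and Hspa1b 0.0101 and 0.00444. Both falls exceed 1.5-fold without the pseudocount. With a pseudocount of 0.1 CPM, 2 members were at least 1.5-fold lower at 6 h. The share of all genes past 1.5-fold is not given for these settings, so the counts are no result about the members. As UMIs per cell the median gene itself stood at -2.24 at 3 h, -2.63 at 6 h and -0.40 between 6 h and 3 h. Leaving UMIs per cell aside, Hspa8 and Hsph1 changed sign at 3 h, no member did at 6 h, and Hsp90aa1, Dnajb1, Hspd1 and Hspb1 did between 6 h and 3 h. No paired analysis was possible because each group is 1 library. With 1 library per group, differences between cultures were not measured, and for Hspa1a and Hspa1b the depth limits any statement.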
